A study of Mus musculus with 48 samples.

Results

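Transcripts of 10 circadian clock genes were examined in mouse amygdala and hippocampus: Per1, Per2, Per3, Cry1, Cry2, Clock, Arntl, Npas2, Dbp and Nr1d1. Every probe set that the platform annotation gives to 1 of these symbols was taken. This gave 12 probe sets for 10 genes, out of 10833 probe sets that name a single gene and 8251 gene symbols in all. Cry1 had 3 probe sets and each of the other genes had 1.

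The series holds 48 one-colour Affymetrix arrays of mouse brain tissue, in 3 arms labelled FC, CS and NH. The amygdala arrays were 6 FC, 6 CS and 10 NH, and the hippocampus arrays were 8 FC, 8 CS and 10 NH. Since these letters are unexplained in the labels, they were read from the series title as fear conditioning, exposure to the conditioned stimulus alone, and naive home cage mice. The sources used here give no genotype, strain, sex, age, time of day at death or interval after a session, and do not say whether each array is a separate animal. The p-values below therefore measure the spread between arrays, which may in part be technical. The number in an array's title is used as its replicate name, and amygdala numbers can be read as a processing batch followed by a pair of numbers, so that an amygdala array may pool a pair of mice.

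In mammals the clock is a transcriptional feedback loop. BMAL1, the product of Arntl, pairs with CLOCK or with its forebrain relative NPAS2 and binds E-box sequences near Per, Cry, Nr1d1 and Dbp, and the PER and CRY proteins return to the nucleus and block that activity. REV-ERBα, the product of Nr1d1, represses Arntl, and DBP activates genes through D-box sequences. Transcripts of the loop follow time of day in many brain regions, and Per1 also responds to light and to cAMP signalling.

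No clock transcript passed the test in any comparison of arms, in either tissue. By arm means Per1 lay highest in FC, next in CS and lowest in NH in both tissues. With the batch held fixed, FC minus NH for Per1 was 0.26 in amygdala and 0.19 in hippocampus on the log2 scale. The order of the arm means did not hold in every batch. In hippocampus FC minus CS was 0.029 ± 0.064, and CS lay above FC in batches 4 and 6. In amygdala batch 2 CS and NH both averaged 6.36. With the batch held fixed, Per3 differed from NH by -0.13 in FC and -0.099 in CS of amygdala, and by -0.052 in FC and -0.067 in CS of hippocampus. The other genes differed between arms by 0.19 or less. Between processing batches 2 of 9 tested clock genes passed in hippocampus (Nr1d1 and Arntl) and 1 of 9 in amygdala (Clock). Of all tested probe sets 25.0% passed in hippocampus and 26.2% in amygdala. Cry2 varied most among arrays of 1 arm and batch. Levels are log2 of the deposited intensity. Each difference is a limma estimate that holds the processing batch fixed, given with its standard error. Passing means an adjusted p below 0.05 (Benjamini and Hochberg over the 7453 probe sets tested in a tissue).

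FC and CS each differed from NH elsewhere on these arrays. Fos, an immediate early gene of active neurons, rose by 1.53 ± 0.15 in amygdala FC minus NH (limma, adjusted p = 1.44e-06) and by 1.09 ± 0.15 in hippocampus FC minus NH (adjusted p = 0.000555). In CS minus NH it rose by 1.15 ± 0.15 in amygdala (limma, adjusted p = 0.000444) and by 0.98 ± 0.15 in hippocampus (adjusted p = 0.00433). Fos was the only probe set that passed in hippocampus. Between FC and CS no probe set passed in either tissue, and Fos differed by 0.38 ± 0.13 in amygdala and 0.11 ± 0.11 in hippocampus. The arrays of a tissue correlated at r from 0.982 to 0.999, and no pair held identical values. Array medians of the linear intensity were 52.3 to 56.1 in amygdala and 76.5 to 80.8 in hippocampus, which points to separate normalization of the tissues, and levels are not compared between them. The label of each tissue was checked by the percentile of marker genes within the array. Neurod6, a transcription factor of hippocampal pyramidal neurons, had a mean percentile of 35.0 in amygdala and 82.2 in hippocampus, and Prox1, a granule cell factor, 11.5 in amygdala and 38.3 in hippocampus. Of 9 hippocampal markers, 3 had their whole hippocampus range above their amygdala range, and for Wfs1 and Calb1 the amygdala range was the higher. Of 6 markers of amygdala and piriform cortex, the amygdala range was the higher for Tac2 and Cdh13 and the hippocampus range for Rspo2 and Lmo1. As a sign of RNA quality, the log2 ratio of the 3′ to the 5′ actin control signal had medians of 0.96 in FC, 1.01 in CS and 0.99 in NH amygdala, and of 0.70, 0.82 and 0.74 in the same arms of hippocampus. None of the tested markers of glia (astrocytes, microglia, oligodendrocytes), of blood, vessels and choroid plexus, of neighbouring regions (thalamus, hypothalamus, striatum) or of hippocampal and amygdala neurons passed in any comparison of arms. At an unadjusted p below 0.05, 3 of 7 microglia markers, 1 of 8 astrocyte markers and 1 of 4 hippocampal neuron markers were higher in amygdala FC than in NH, where 302 of the 7453 tested probe sets were, and their part in the Per1 and Per3 values given below was not tested.

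Of the 12 clock probe sets, 9 were bright enough to test in both tissues. Per2 and 2 of the 3 Cry1 probe sets were among the 40% with the lowest mean and are described from a fit without that filter. Their mean percentile within the array was 17.6 in amygdala and 18.9 in hippocampus for Per2. For the dim Cry1 sets it was 1.34 and 1.25 in amygdala, against 1.06 and 1.04 in hippocampus. The percentile of a probe set reflects its binding as well as its transcript, so each is set only against itself in the other tissue. Cry2 had a mean percentile of 65.6 in amygdala and 58.6 in hippocampus, and Clock had 45.5 in amygdala and 52.8 in hippocampus. The bright Cry1 set had 64.7 in amygdala and 60.1 in hippocampus. All 12 clock probe sets overlapped between the tissues in this measure. Of 7242 probe sets tested in both tissues, which include 9 of the 12, 4.58% did not overlap. With so few clock probe sets, finding none is near that share.

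The period genes encode the PER proteins, the rhythmically supplied partner in the repressor complex. For Per1 the amygdala levels in FC ran from 6.45 to 6.81 with a median of 6.58, in CS from 6.23 to 6.70 with a median of 6.55, and in NH from 6.10 to 6.44 with a median of 6.20. Every amygdala FC array lay above every NH array, as in 0.443% of tested probe sets and 1 of the 9 tested clock genes, while CS overlapped both. In hippocampus Per1 ran from 6.97 to 7.18 in FC (median 7.03), from 6.69 to 7.35 in CS (median 7.02) and from 6.72 to 7.06 in NH (median 6.84). There the FC arrays were tightly grouped and overlapped the upper end of NH, and CS spread over the whole range of both. The difference in amygdala was 0.26 ± 0.082 for FC minus NH (95% interval 0.090 to 0.43, a 1.20-fold difference, unadjusted p = 0.00419, limma adjusted p = 0.790), 0.11 ± 0.083 for CS minus NH and 0.15 ± 0.074 for FC minus CS (unadjusted p = 0.0554). In hippocampus it was 0.19 ± 0.084 for FC minus NH (95% interval 0.019 to 0.36, unadjusted p = 0.0305, adjusted p = 1.00), 0.16 ± 0.085 for CS minus NH (unadjusted p = 0.0666) and 0.029 ± 0.064 for FC minus CS.

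Processing batches were unevenly filled, so each was also read by itself. In amygdala batch 2 the 4 FC arrays all lay above the 3 NH arrays for Per1, with means of 6.60 in FC and 6.36 in NH, and CS averaged 6.36. In batch 3 the 2 FC arrays averaged 6.64 and the 3 CS arrays 6.61, all above the single NH array at 6.31. In hippocampus batch 6 the 2 FC arrays averaged 7.07 and the CS array 7.19, above the 2 NH arrays at 6.80. Hippocampus batch 4 showed no such gap, with 7.01 in FC, 7.09 in CS and 7.00 in NH. FC minus NH for Per1 was thus 0.24 and 0.33 in the amygdala batches that held both arms, and 0.012 and 0.28 in those of hippocampus. Leaving out 1 array at a time kept it between 0.21 and 0.30 in amygdala and between 0.15 and 0.25 in hippocampus. Without a batch term the amygdala difference was 0.37 and passed (limma, adjusted p = 0.0109, range over its alternatives 0.0109 to 1.00), as it did with array weights at 0.27 (adjusted p = 0.0176), settings under which 211 and 911 probe sets passed in all. The batch without other arms, batch 1, held 6 NH arrays with a mean of 6.18 for Per1.

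With the batch held fixed, Per3 ran the other way, lower in FC and CS than in NH. Its amygdala levels in FC ran from 5.66 to 5.92 with a median of 5.79, in CS from 5.68 to 5.89 with a median of 5.85, and in NH from 5.72 to 6.04 with a median of 5.86. In hippocampus Per3 ran from 6.18 to 6.59 in FC (median 6.41), from 6.28 to 6.48 in CS (median 6.41) and from 6.25 to 6.55 in NH (median 6.39). The arms overlapped widely in both tissues, and no shift is visible before batches are taken into account. Without a batch term FC minus NH was -0.067 in amygdala and 0.0076 in hippocampus. With the batch held fixed, Per3 in amygdala differed by -0.13 ± 0.058 in FC minus NH (95% interval -0.25 to -0.010, unadjusted p = 0.0348, limma adjusted p = 0.894) and by -0.099 ± 0.059 in CS minus NH. Within batch 2 the means for Per3 were 5.83 in FC, 5.81 in CS and 5.96 in NH, and within batch 3 they were 5.73, 5.83 and 5.85 in the same arms. FC was below NH in both batches. The hippocampus differences for Per3 were -0.052 ± 0.061 in FC minus NH and -0.067 ± 0.062 in CS minus NH, and FC minus NH was 0.011 in batch 4 and -0.16 in batch 6.

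Per2 was dim throughout. In amygdala it averaged 3.75 ± 0.078 in FC and 3.75 ± 0.11 in CS (SD, n = 6 each), and 3.84 ± 0.12 in NH (SD, n = 10). In hippocampus the averages were 4.50 ± 0.11 in FC and 4.48 ± 0.061 in CS (SD, n = 8 each), and 4.46 ± 0.092 in NH (SD, n = 10). FC minus NH for Per2 was -0.12 ± 0.067 in amygdala and 0.0080 ± 0.067 in hippocampus, and neither passed.

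**Figure D1:**
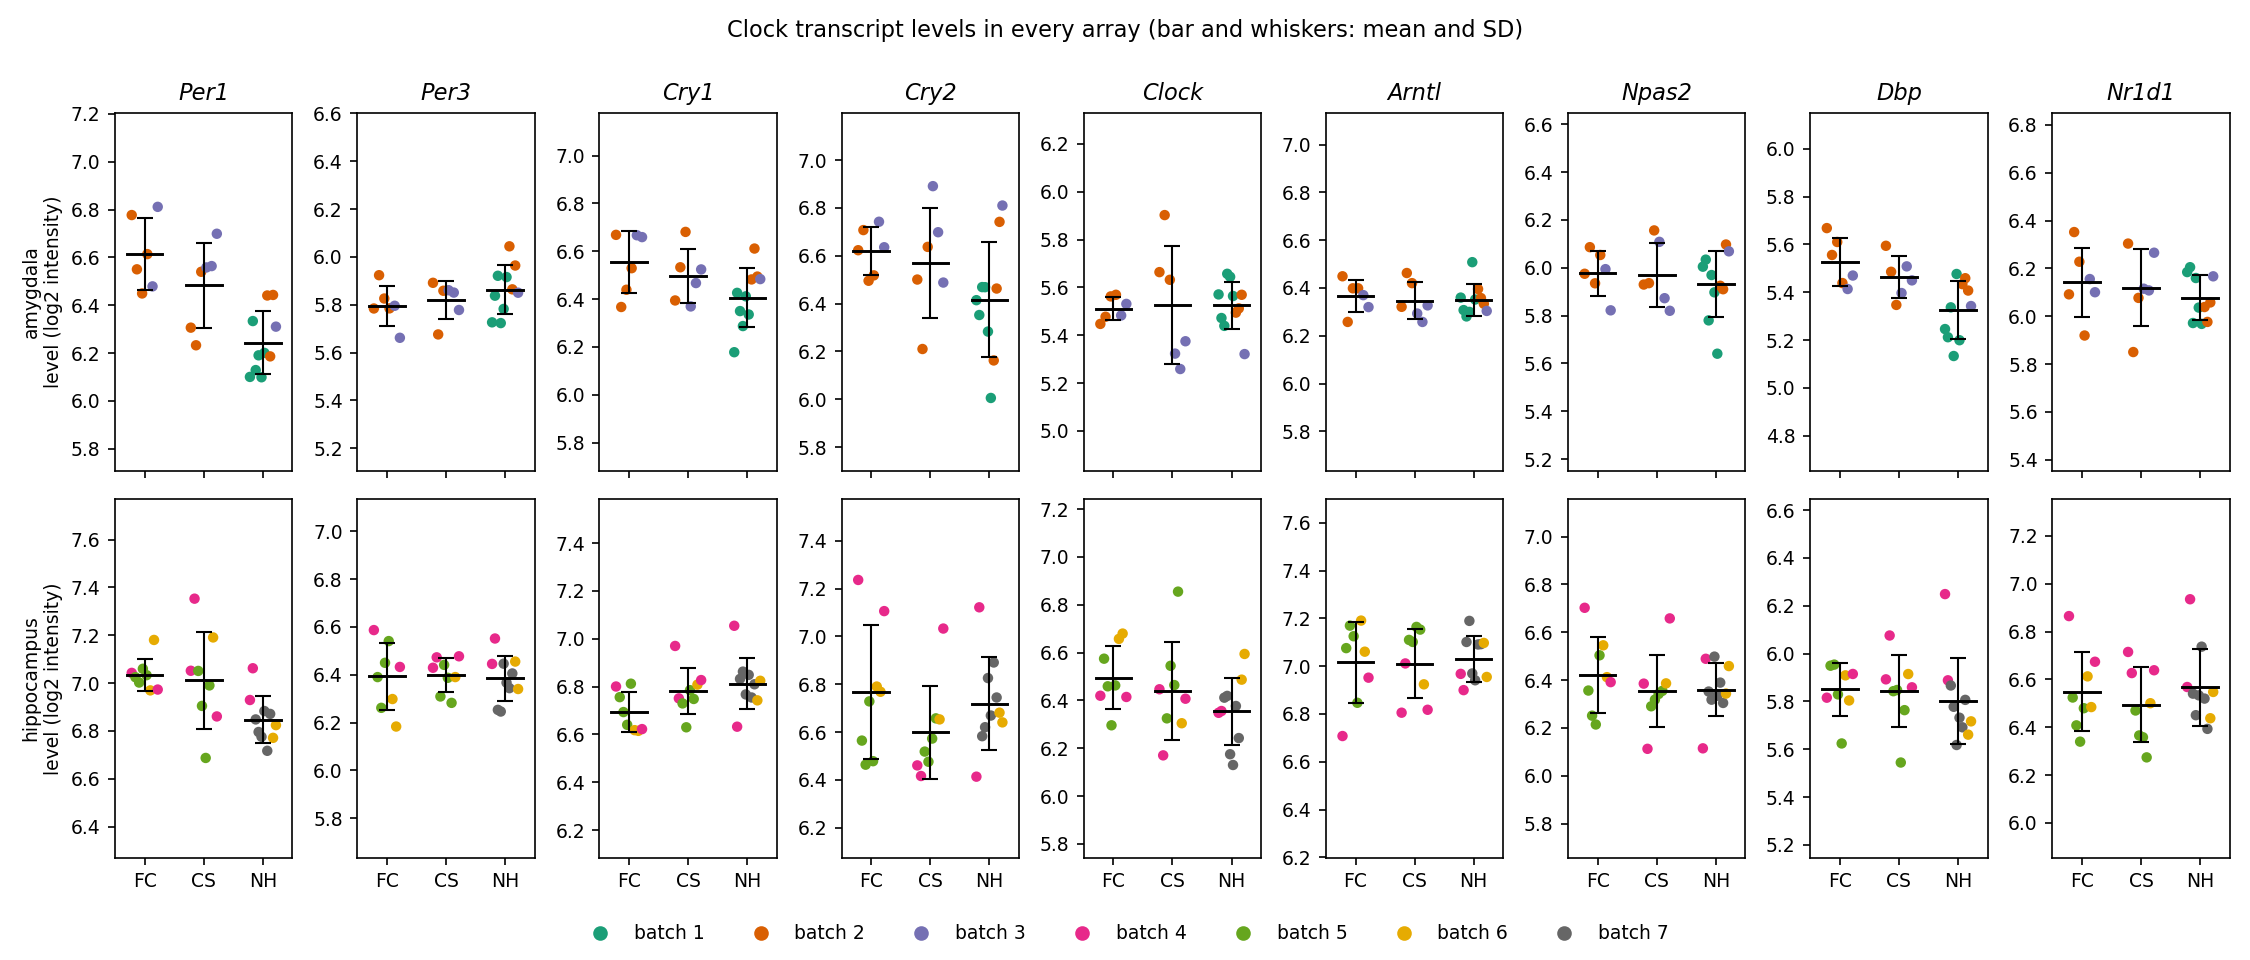
Level of each tested clock gene in every array, as log2 intensity, with amygdala in the upper row and hippocampus in the lower row, for the arms FC, CS and NH from left to right. Points are arrays coloured by processing batch, and bars with whiskers are the mean and SD of the arm. In amygdala all 6 FC arrays lie above all 10 NH arrays for Per1, and for the other genes the arms overlap in both tissues.

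The 2 genes with an unadjusted p below 0.05 were Per1 and Per3, and Nr1d1 had the largest F between batches, so their promoters are shown from RefSeq (GRCm38.p6), each a window of 300 bases that ends shortly after an annotated start, read on the gene's strand. Capitals mark the motifs found. The promoter table held 13 starts for 9 of the 10 genes, and Per2 was not among them. Per1 is on chromosome 11, with starts at chr11:69098699-69098998 and chr11:69099902-69100201 (plus strand). Per3 is at chr4:151044616-151044915 (minus strand) and Nr1d1 at chr11:98775328-98775627 (minus strand).
Per1 start 1: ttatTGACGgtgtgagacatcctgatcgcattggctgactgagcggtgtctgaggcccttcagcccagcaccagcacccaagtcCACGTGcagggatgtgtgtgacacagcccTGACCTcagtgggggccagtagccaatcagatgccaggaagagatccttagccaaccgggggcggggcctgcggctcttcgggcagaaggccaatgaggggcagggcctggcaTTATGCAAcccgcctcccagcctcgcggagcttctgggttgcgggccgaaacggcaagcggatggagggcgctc
Per1 start 2: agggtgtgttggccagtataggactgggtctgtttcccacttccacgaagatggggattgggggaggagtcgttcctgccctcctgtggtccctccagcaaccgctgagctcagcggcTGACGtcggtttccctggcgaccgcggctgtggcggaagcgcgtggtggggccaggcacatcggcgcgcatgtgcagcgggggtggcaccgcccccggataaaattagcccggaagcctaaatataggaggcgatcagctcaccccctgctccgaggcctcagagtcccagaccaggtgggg
Per3: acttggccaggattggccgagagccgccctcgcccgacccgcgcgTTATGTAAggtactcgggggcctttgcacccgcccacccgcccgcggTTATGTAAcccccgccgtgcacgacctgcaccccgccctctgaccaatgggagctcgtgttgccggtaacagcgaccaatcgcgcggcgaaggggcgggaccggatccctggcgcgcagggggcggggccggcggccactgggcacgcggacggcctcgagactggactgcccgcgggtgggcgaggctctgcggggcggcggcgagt
Nr1d1: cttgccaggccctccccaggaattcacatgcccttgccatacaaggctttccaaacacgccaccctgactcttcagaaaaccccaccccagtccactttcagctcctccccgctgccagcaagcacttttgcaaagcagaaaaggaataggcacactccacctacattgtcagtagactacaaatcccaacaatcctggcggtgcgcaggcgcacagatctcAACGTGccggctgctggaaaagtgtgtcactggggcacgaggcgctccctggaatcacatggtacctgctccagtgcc
The motifs were searched on both strands. The E-box CACGTG, which CLOCK and BMAL1 bind, occurred once in Per1 start 1, at base 85 of the window, and once in Cry1. It was thus in 2 of the 9 genes and 2 of the 13 starts, against 7.15% of 32851 promoters in the table. Each of those promoters is the window of 1 start, so the share of starts is the like measure. The variant E-box CACGTT occurred in Nr1d1, Cry1 and Cry2 (3 of 13 starts), against 4.68%. The D-box TTATGNAA, which DBP binds, occurred at base 227 of Per1 start 1 and at bases 46 and 93 of Per3 (2 of 13 starts), against 3.38%. The short CRE motif TGACG, which CREB can bind, occurred at both Per1 starts and in Cry1 and Cry2 (4 of 13 starts), against 20.8%. The nuclear receptor motif AGGTCA occurred at Per1 start 1 and at 1 start each of Clock and Arntl (3 of 13 starts), against 16.3%. The E-box and its variant differ in their last base and so share no site. No motif searched was in the windows of Dbp or Npas2. A match describes these letters in these windows and shows neither binding nor control.

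The cryptochrome genes encode the partner repressors of the PER proteins. Cry1 was read from its bright probe set, whose suffix marks a set that may also detect related sequences. In amygdala Cry1 averaged 6.56 ± 0.13 in FC and 6.49 ± 0.11 in CS (SD, n = 6 each), and 6.41 ± 0.12 in NH (SD, n = 10). In hippocampus it averaged 6.69 ± 0.084 in FC and 6.78 ± 0.097 in CS (SD, n = 8 each), and 6.81 ± 0.11 in NH (SD, n = 10). With batches pooled, the order of the arm means was opposite in the 2 tissues. The amygdala order was not kept with the batch held fixed, where CS minus NH was -0.027 ± 0.070. In amygdala FC minus NH was -0.028 in batch 2 and 0.18 in batch 3. Within batches FC minus NH for Cry1 was 0.036 ± 0.069 in amygdala and -0.11 ± 0.068 in hippocampus (unadjusted p = 0.115), and the hippocampus value ran from -0.20 to -0.031 with 1 array left out. Amygdala minus hippocampus of that difference was 0.15 ± 0.097 (95% interval -0.049 to 0.34, limma unadjusted p = 0.138, adjusted p = 0.981), so the opposite sign of FC minus NH was within the spread of the arrays. The dim Cry1 sets gave FC minus NH of -0.067 and 0.061 in amygdala and of -0.019 and -0.0037 in hippocampus, and so did not agree in sign with each other in amygdala.

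Cry2 had the widest spread of the clock genes. In amygdala it ran from 6.50 to 6.74 in FC (median 6.63), from 6.21 to 6.89 in CS (median 6.57) and from 6.01 to 6.81 in NH (median 6.44). In hippocampus it ran from 6.46 to 7.24 in FC (median 6.75), from 6.42 to 7.03 in CS (median 6.55) and from 6.41 to 7.12 in NH (median 6.68). All arms overlapped. FC minus CS for Cry2 was 0.19 ± 0.095 in hippocampus (95% interval -0.0086 to 0.38, unadjusted p = 0.0602, limma adjusted p = 1.00) and 0.085 ± 0.095 in amygdala. The hippocampus value was 0.53 in batch 4, 0.0025 in batch 5 and 0.13 in batch 6, so 1 batch carried most of it. The residual SD of Cry2 was 0.18 in amygdala and 0.21 in hippocampus, at percentiles 93.9 and 94.2 of the tested probe sets of those tissues. The median probe set had 0.11 in both tissues.

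Cry2 followed the actin ratio among arrays of the same arm and batch. In hippocampus batch 4 the actin ratio was 0.38 and 0.60 in the FC arrays with Cry2 at 7.24 and 7.11. It was 0.80, 0.96 and 1.11 in the CS arrays with Cry2 at 7.03, 6.46 and 6.42, and 0.52 and 1.17 in the NH arrays with Cry2 at 7.12 and 6.41. The higher an array's actin ratio in that batch, the lower was its Cry2 level, without exception. Over 25 hippocampus arrays in an arm and batch with at least 1 other array, Pearson's r was -0.81 (permutation p within arm and batch = 0.00238, adjusted p = 0.0428 over the 18 such relations, 9 genes in 2 tissues) and Spearman's rho was -0.63 (permutation p = 0.0187). Without the 2 arrays farthest from the median ratio r was -0.67 (permutation p = 0.00406), and it was -0.91, -0.76 and -0.49 within batches 4, 5 and 7. Over 21 amygdala arrays r was -0.68 (permutation p = 0.0114, adjusted p = 0.102) and rho was -0.69, with -0.42 and -0.79 within batches 1 and 2. It was -0.56 without the 2 farthest arrays (permutation p = 0.0524). None of the other 16 relations passed, and the next was Dbp in hippocampus at r = 0.65 (permutation p = 0.0331, adjusted p = 0.199). Over the 7 arrays of hippocampus batch 4 alone, r with the ratio was 0.97 for Dbp, -0.89 for Nr1d1, -0.87 for Npas2 and -0.72 for Per3. Each of these was weaker in batches 5 and 7. For the remaining genes r in batch 4 was 0.60 for Arntl, 0.56 for Cry1, -0.34 for Clock and 0.12 for Per1. How many of all tested probe sets follow the actin ratio was not tested, so the relation is not shown to be particular to Cry2. With the actin ratio as a covariate, an alternative added after the data were seen, Cry2 FC minus CS in hippocampus was 0.035, and Per1 FC minus NH was 0.28 in amygdala and 0.21 in hippocampus. The part of RNA quality in any of these differences was not tested.

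**Figure D2:**
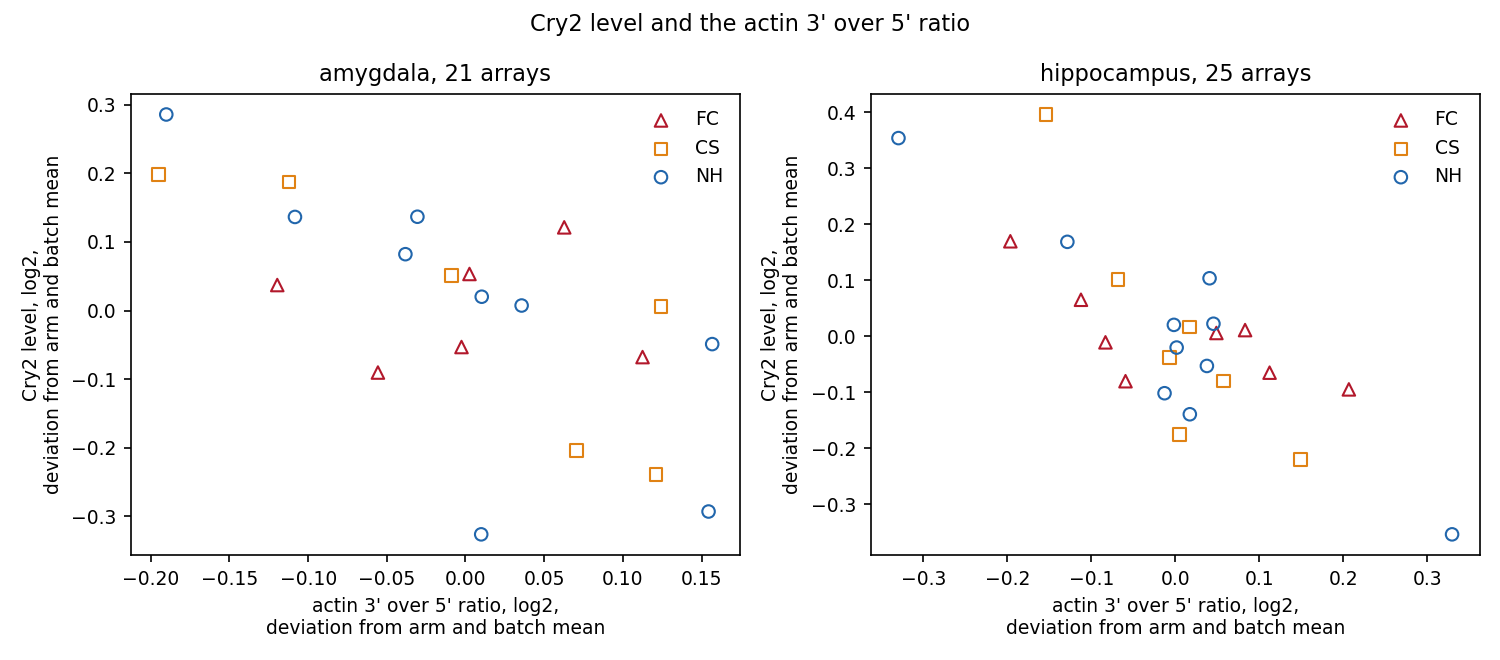
Deviation of the Cry2 level from the mean of its arm and batch (vertical axis, log2) against the deviation of the actin 3′ over 5′ ratio (horizontal axis, log2), in 21 amygdala arrays (left) and 25 hippocampus arrays (right). Symbols are the arms FC, CS and NH, and Cry2 is lower where the ratio is higher in both tissues (r = -0.68 in amygdala and -0.81 in hippocampus).

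The activators of the loop are Clock, Npas2 and Arntl. For Clock the amygdala levels in FC ran from 5.45 to 5.57 with a median of 5.51, in CS from 5.26 to 5.90 with a median of 5.50, and in NH from 5.32 to 5.66 with a median of 5.54. In hippocampus Clock ran from 6.30 to 6.68 in FC (median 6.46), from 6.17 to 6.86 in CS (median 6.43) and from 6.13 to 6.59 in NH (median 6.37). The CS arrays spanned the FC and NH ranges of their tissue in amygdala, and nearly so in hippocampus. FC minus NH for Clock was 0.056 ± 0.072 in amygdala and 0.030 ± 0.092 in hippocampus, and CS minus NH was 0.11 ± 0.073 and -0.0040 ± 0.093 in the same tissues.

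Arntl was the steadiest clock transcript in amygdala, with a residual SD of 0.066 at percentile 7.42 of tested probe sets. Its amygdala averages were 6.37 ± 0.068 in FC and 6.35 ± 0.078 in CS (SD, n = 6 each), and 6.35 ± 0.066 in NH (SD, n = 10). The hippocampus averages were 7.02 ± 0.17 in FC and 7.01 ± 0.15 in CS (SD, n = 8 each), and 7.03 ± 0.095 in NH (SD, n = 10). For Arntl, FC minus NH was 0.024 with a 95% interval of -0.081 to 0.13 in amygdala, and -0.033 with an interval of -0.18 to 0.11 in hippocampus. Npas2 averaged 5.98 ± 0.094 in FC and 5.97 ± 0.13 in CS amygdala (SD, n = 6 each), and 5.93 ± 0.14 in NH amygdala (SD, n = 10). In hippocampus it averaged 6.42 ± 0.16 in FC and 6.36 ± 0.15 in CS (SD, n = 8 each), and 6.36 ± 0.11 in NH (SD, n = 10). For Npas2, FC minus NH was -0.018 ± 0.077 in amygdala and 0.13 ± 0.088 in hippocampus (95% interval -0.049 to 0.31), and neither passed. With 1 array left out the hippocampus value ran from 0.043 to 0.19.

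Dbp and Nr1d1 are direct targets of the activators with large daily swings in many tissues. Dbp in amygdala ran from 5.41 to 5.67 in FC (median 5.51), from 5.35 to 5.59 in CS (median 5.47) and from 5.13 to 5.48 in NH (median 5.34). The arms were ordered FC, CS, NH there as for Per1, and they overlapped. In hippocampus Dbp ran from 5.62 to 5.95 in FC (median 5.87), from 5.54 to 6.08 in CS (median 5.85) and from 5.62 to 6.25 in NH (median 5.75). For Dbp, FC minus NH was 0.12 ± 0.062 in amygdala (95% interval -0.0071 to 0.25, unadjusted p = 0.0629, limma adjusted p = 0.894), with 0.13 in batch 2 and 0.099 in batch 3. In hippocampus it was 0.013 ± 0.087, with -0.20 in batch 4 and 0.17 in batch 6, so the batches pointed in opposite directions. Nr1d1 averaged 6.14 ± 0.15 in FC and 6.12 ± 0.16 in CS amygdala (SD, n = 6 each), and 6.08 ± 0.094 in NH amygdala (SD, n = 10). In hippocampus it averaged 6.55 ± 0.17 in FC and 6.49 ± 0.16 in CS (SD, n = 8 each), and 6.57 ± 0.16 in NH (SD, n = 10). FC minus NH for Nr1d1 was 0.076 ± 0.081 in amygdala and 0.031 ± 0.070 in hippocampus.

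**Figure D3:**
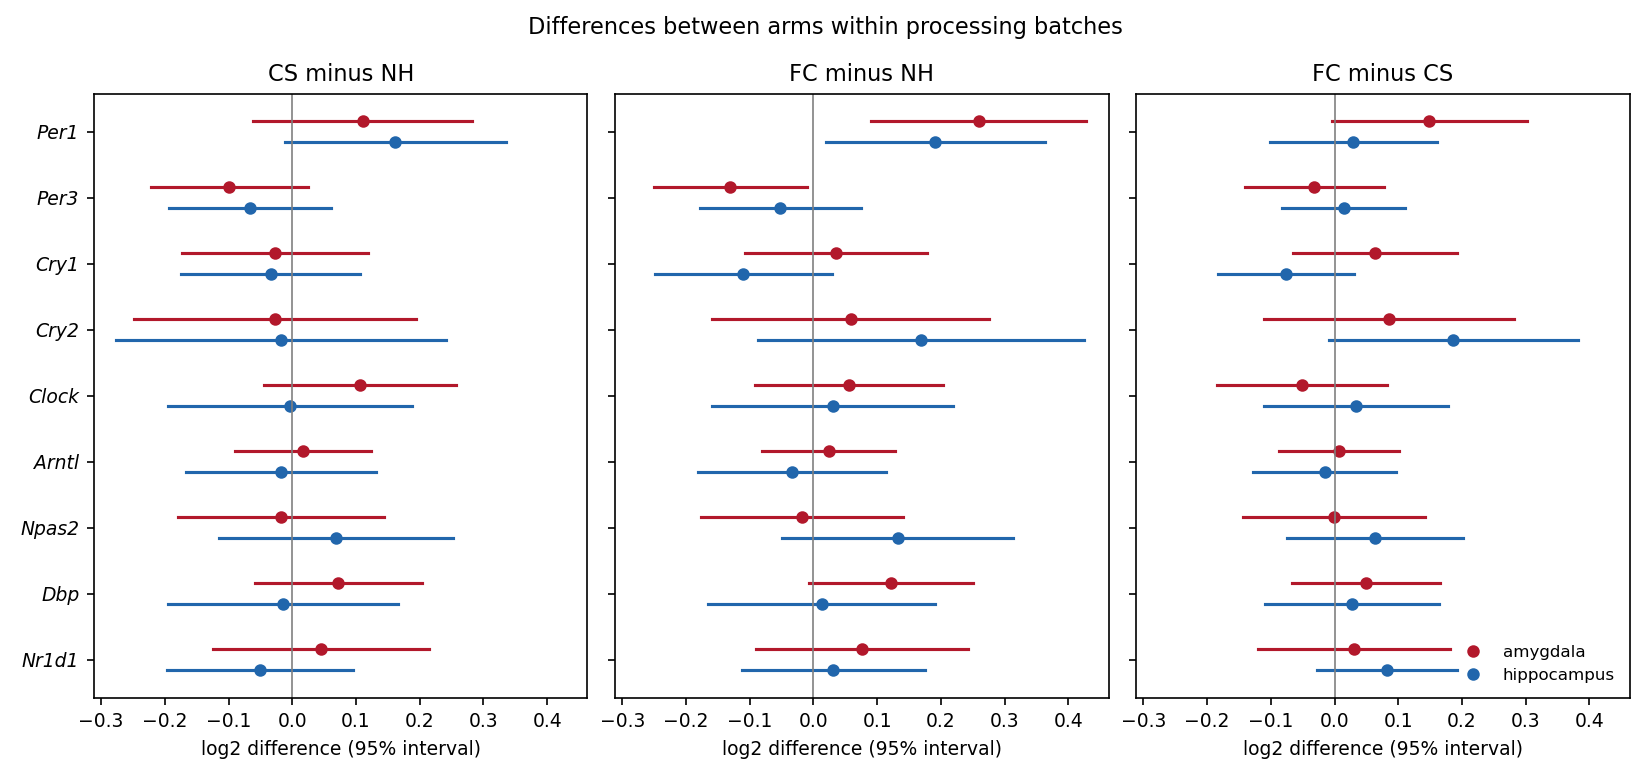
Difference between arms within processing batches for the 9 tested clock genes, as log2 with the 95% interval, for CS minus NH, FC minus NH and FC minus CS from left to right, amygdala above hippocampus for each gene. The intervals that leave out 0 are those of Per1 in FC minus NH in both tissues and of Per3 in FC minus NH in amygdala.

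No clock gene passed in any of the 6 comparisons of arms. In amygdala FC minus NH, 0 of 9 passed, against 0.0939% of the 7453 tested, and 2 of 9 (Per1 and Per3) had an unadjusted p below 0.05, against 5.15%. In amygdala CS minus NH, 0 of 9 passed (0.0134% of all) and 0 had an unadjusted p below 0.05 (3.92%). In amygdala FC minus CS, 0 of 9 passed (0% of all) and 0 had an unadjusted p below 0.05 (1.23%). In hippocampus FC minus NH, 0 of 9 passed (0.0134%) and 1, Per1, had an unadjusted p below 0.05 (2.27%). The hippocampus counts for CS minus NH were 0 of 9 (0.0134%) and 0 unadjusted (1.45%), and those for FC minus CS were 0 of 9 (0%) and 0 unadjusted (0.765%). FC minus NH and CS minus NH share their NH arrays. The median of the 9 genes in FC minus NH was 0.056 in amygdala and 0.030 in hippocampus, beside medians of 0.010 and -0.00046 over all tested probe sets, and 7 and 6 of the 9 were positive, beside 55.2% and 49.7% of all. In bulk tissue, fewer cells of a type and less RNA per cell cannot be told apart.

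The difference between tissues was tested directly, on the 7242 probe sets bright enough in both. Read as a batch and a pair of numbers, several amygdala titles hold numbers of hippocampus arrays of the same arm, so the tissues may share mice. The labels do not state this, and the fit treated the arrays of the tissues as independent. None of the 9 clock genes passed for FC minus NH (0% of all passed; 0 of 9 and 3.42% of all at an unadjusted p below 0.05), CS minus NH (0%; 0 of 9 and 2.53%) or FC minus CS (0%; 0 of 9 and 1.37%). For Per1, amygdala minus hippocampus of FC minus NH was 0.068 ± 0.12 with a 95% interval of -0.17 to 0.31. That interval holds a gap as large as the Per1 difference itself. For Per3 it was -0.078 ± 0.083, with an interval of -0.24 to 0.088.

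Clock genes beyond the 10 were taken from 4 lists: loop partners such as Bhlhe40, kinases and protein turnover such as Csnk1d, cofactors, and output genes. Of their 47 genes, 41 probe sets could be tested in hippocampus and 40 in amygdala by this filter, and none passed in any comparison of arms. In amygdala FC minus NH, 26 of 40 were positive, beside 55.2% of all tested probe sets, with a median of 0.025. An unadjusted p below 0.05 was found for 2 of the 40, both positive, beside 5.15% of all. Each gene below is given by its probe set with the smallest p, and other sets of the gene can differ. These were Csnk1d, a kinase that marks PER for degradation, at 0.24 ± 0.076 (limma, adjusted p = 0.790), and Bhlhe40, an activity-responsive repressor of the loop, at 0.28 ± 0.10 (adjusted p = 0.894). Fbxw11, a ubiquitin ligase subunit that recognises PER, followed at 0.18 ± 0.095. The other Fbxw11 set was at 0.012 and the other 3 Csnk1d sets were at 0.075 to 0.12 in this comparison. In amygdala CS minus NH, 29 of 40 were positive, beside 53.8% of all, and 2 had an unadjusted p below 0.05, beside 3.92% of all. The smallest p were those of the coactivator Crebbp (0.16 ± 0.061, unadjusted p = 0.0161), Bhlhe40 (0.22 ± 0.10, unadjusted p = 0.0424) and Csnk1d (0.12 ± 0.078). In amygdala FC minus CS they were Csnk2a1 at -0.15 ± 0.073, Tef, a relative of Dbp, at 0.088 ± 0.046, and Pdxk at 0.13 ± 0.070. In hippocampus none of the 41 had an unadjusted p below 0.05 in any comparison. The smallest there in FC minus NH were Csnk1d at 0.18 ± 0.095, Csnk1a1 at -0.20 ± 0.10 and Fbxw11 at 0.28 ± 0.16. In CS minus NH they were Csnk2a2 at 0.13 ± 0.094 (its other sets were at -0.044 and 0.027), the RNA helicase Ddx5 at 0.14 ± 0.10 and another Csnk1d set at -0.078 ± 0.062. In FC minus CS they were a pair of Pdxk sets at 0.098 ± 0.059 and -0.083 ± 0.056, which differ in sign, and a further Csnk1d set at -0.060 ± 0.041.

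Differences between processing batches, with the arm held fixed, were tested with limma's moderated F test. In hippocampus 2 of 9 clock genes passed, Nr1d1 and Arntl, where 25.0% of all tested probe sets did. In amygdala 1 of 9 passed, Clock, where 26.2% of all did. These shares were no larger than those of all transcripts. A batch is what the labels name as a processing batch, and whether it also marks a day, a litter or a time of day is not given.

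Nr1d1 had the largest F of the clock genes. In hippocampus batch 4 it averaged 6.77 in FC (n = 2), 6.66 in CS (n = 3) and 6.75 in NH (n = 2). In batch 5 it averaged 6.44 in FC and 6.37 in CS (n = 4 each), and every array of batch 5 lay below every array of batch 4. Batch 6 had means in between, at 6.55 in FC, 6.50 in CS and 6.49 in NH, and the 6 NH arrays of batch 7 averaged 6.53. At a fixed arm, Nr1d1 was 0.32 lower in batch 5 than in batch 4 on the log2 scale (F = 11.3, limma adjusted p = 0.00130 over the 4 batches), and leaving out any 1 array kept the adjusted p at 0.00730 or below. Arntl, which the product of Nr1d1 represses, ran the other way, and a link between the shifts was not tested. It was 0.22 higher in batch 5 than in batch 4 (F = 5.54, limma adjusted p = 0.0239). Its batch 4 levels were 6.71 and 6.95 in FC, 6.81, 6.82 and 7.01 in CS, and 6.90 and 6.97 in NH, against averages of 7.05 in FC and 7.13 in CS of batch 5. Arntl no longer passed without FC replicate 113 (adjusted p = 0.0953), CS replicate 85 (0.0584) or CS replicate 105 (0.0566), all in batch 4. Among NH arrays alone neither gene passed, with adjusted p of 0.495 for Nr1d1 and 0.719 for Arntl and 10 arrays in 3 batches. Batch 5 held no NH array, so that fit cannot test the difference between batches 5 and 4.

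Per3 and Dbp in hippocampus and Per1, Cry1, Cry2 and Dbp in amygdala had an unadjusted p below 0.05 between batches without passing, and the adjusted p was 0.0673 for hippocampus Per3 and 0.0524 for amygdala Cry2. With the genes that passed, 4 of 9 in hippocampus and 5 of 9 in amygdala were below that unadjusted limit. Over all tested probe sets at least 25.0% and 26.2% were, since these shares passed after adjustment, and the full shares were not counted. Dbp in hippocampus was highest in batch 4 and 0.21 lower in batch 7. Cry2 in amygdala was 0.37 higher in batch 3 than in batch 1. In amygdala Clock was 0.25 lower in batch 3 than in batch 1 (F = 7.65, adjusted p = 0.0178). The CS arrays of batch 2 were at 5.66, 5.90 and 5.63 and those of batch 3 at 5.32, 5.26 and 5.37, with no overlap. The single NH array of batch 3 was at 5.32, below the 3 of batch 2 at 5.49 to 5.57. The FC arrays did not differ in this way, with 5.45 to 5.57 in batch 2 and 5.48 and 5.53 in batch 3. Whether the batch difference of Clock differed between arms was not tested. Without NH replicate 3142153, the array of batch 3, Clock had an adjusted p of 0.0581.

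**Figure D4:**
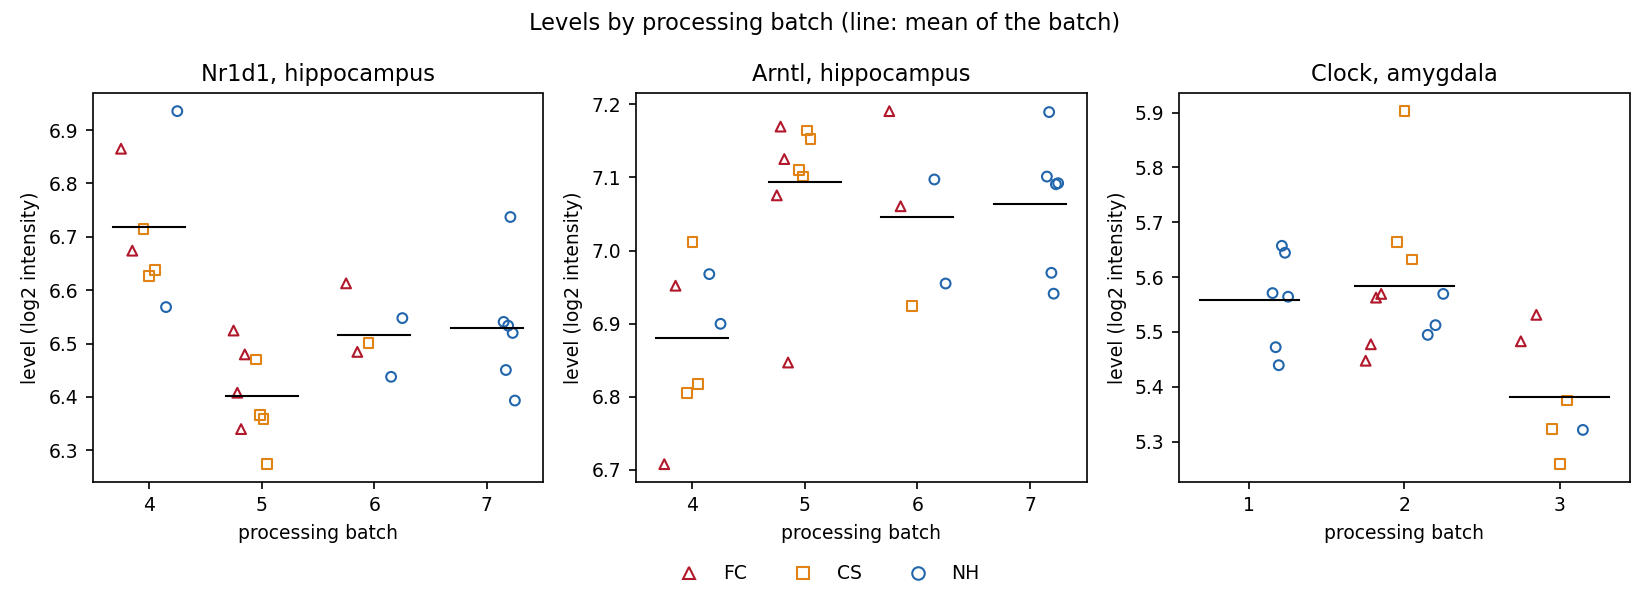
Level (log2 intensity) of Nr1d1 and Arntl in hippocampus and of Clock in amygdala by processing batch, with symbols for FC, CS and NH and a line at the mean of each batch. Nr1d1 is high and Arntl low in batch 4, and Clock is low in batch 3 in the CS and NH arrays but not in the FC arrays.

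Whether clock genes varied together was asked among arrays of the same arm and batch, with the mean of each arm and batch removed. This left 21 amygdala and 25 hippocampus arrays, 36 gene pairs in each tissue and 72 tests. No pair passed in either tissue, and the smallest adjusted p was 0.138. The pairs named next were chosen after their values were seen. Cry2 and Npas2 had the highest Pearson's r in both tissues, with r = 0.71 in amygdala (rho = 0.65, permutation p = 0.00237, adjusted p = 0.138) and r = 0.68 in hippocampus (rho = 0.51, permutation p = 0.0824, adjusted p = 0.393). By Spearman's rho, Npas2 and Nr1d1 were higher in hippocampus at 0.62 (r = 0.50). For Cry2 and Npas2 in hippocampus r was 0.88 in batch 4, -0.36 in batch 5 and 0.58 in batch 7, and in amygdala it was 0.67 in batch 1 and 0.72 in batch 2. Without the 2 arrays farthest from the median of Cry2 it was 0.64 in amygdala and 0.48 in hippocampus. With the actin ratio removed it was 0.64 and 0.40.

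Of the other pairs named here, Arntl against Nr1d1 had r = -0.46 in amygdala (rho = -0.36, permutation p = 0.120, adjusted p = 0.479) and r = -0.52 in hippocampus (rho = -0.58, permutation p = 0.0115, adjusted p = 0.138). The hippocampus value was -0.59, -0.43 and -0.73 within batches 4, 5 and 7, and -0.47 without the 2 farthest arrays. Arntl against Npas2 had r = -0.080 in amygdala and -0.66 in hippocampus (rho = -0.65, permutation p = 0.00582, adjusted p = 0.138), and the difference between the tissues was not tested. Npas2 against Dbp was -0.40 in amygdala and -0.65 in hippocampus (rho = -0.60, permutation p = 0.00526, adjusted p = 0.138), and the hippocampus value was -0.43 with the actin ratio removed. Arntl against Dbp was 0.29 in amygdala (-0.16 to 0.51 with 1 array left out) and 0.55 in hippocampus (rho = 0.56, permutation p = 0.00827, adjusted p = 0.138). Per3 against Clock was -0.67 in amygdala (rho = -0.66, permutation p = 0.0103, adjusted p = 0.138) and -0.39 in hippocampus.

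**Figure D5:**
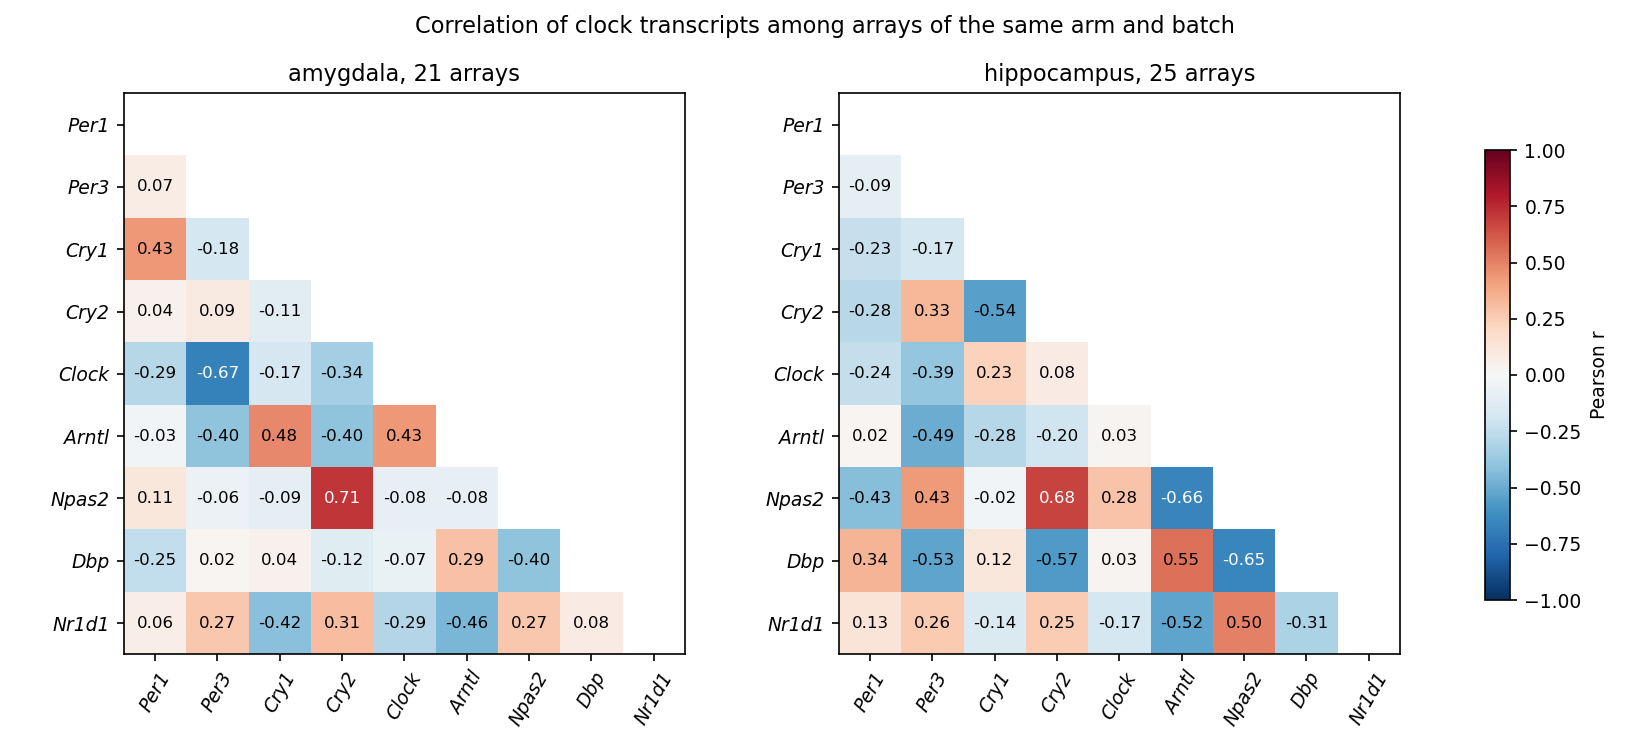
Pearson's r of each pair of tested clock genes over deviations from the mean of the same arm and batch, for 21 amygdala arrays (left) and 25 hippocampus arrays (right), with red for positive and blue for negative r. Cry2 with Npas2 has the highest r in both tissues, and none of the 36 pairs of a tissue passed after adjustment.

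For clock genes whose residual SD exceeded the upper quartile of tested probe sets, the transcript most like each was sought among 6685 probe sets naming a single gene. In amygdala Cry2 was most like Lasp1 (r = 0.92), Nr1d1 most like Chad (r = 0.91) and Per1 most like Capn5 (r = 0.82), over 21 arrays. In hippocampus Cry2 was most like Kif1a (r = 0.94) and Clock most like Evi2a (r = 0.84), over 25 arrays. Without the 2 farthest arrays these values lay between 0.77 and 0.91. An r above 0.7 was found with 136 probe sets for Cry2, 217 for Nr1d1 and 45 for Per1 in amygdala, and with 205 for Cry2 and 42 for Clock in hippocampus. The arrays of a tissue share their normalization and RNA quality, and these values are a description of the highest of many.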

How the data were processed

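Total RNA of each sample was labelled as biotinylated cRNA and hybridised to a one-colour Affymetrix mouse array. The deposited intensity values, on a linear scale, were made by the authors with RMA, per the submitters' processing notes, with the version and settings not given in the sources used here. Log2 of the deposited intensity was taken, with no further normalization.

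Of 12488 probe sets, 66 controls were removed. In the platform annotation 10833 of the rest name 1 gene, 396 several and 1193 none. Each tissue was fitted alone with limma 3.58.1 in R 4.3.3, with arm and processing batch as fixed terms and the dimmest 40% of probe sets left out. P-values are two-sided and adjusted by Benjamini and Hochberg over all tested probe sets, with a threshold of 0.05, and the fit was tested on simulated data. Differences between tissues came from 1 fit of both. Differences from NH rest on the 4 NH arrays of each tissue that share a batch with other arms, since 6 NH arrays formed a batch of their own. Correlations used deviations from the mean of an arm and batch, with 100000 permutations within arm and batch (Python 3.11.15, NumPy 2.4.6, SciPy 1.17.1). The number of arrays limits the precision.

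All probe sets of the 10 genes are named, and of 4 further clock lists the genes past the threshold and the 3 smallest p of each comparison. Likeness was sought for genes above the upper quartile of residual SD. Members and lists were chosen with earlier results of these data known. Alternatives varied the batch term, the arms fitted, the filter, weights, normalization, pseudocount, moderation and the arrays included.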

Additional observations from a re-analysis of the deposited data

Results flagged for a closer look

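In 6 of 72 groups of arrays, a group being 1 probe set in 1 arm of 1 tissue, the highest or lowest array lay far from the nearest other by Dixon's criterion. Chance alone gives about 1 in 20 groups if the arrays of a group are alike. These groups pool processing batches, which differ for many probe sets, so the count cannot be set against that rate. Hippocampus NH replicate 100 accounted for a pair of them, with Dbp high at 6.249 (nearest 5.888) and Npas2 low at 6.115 (nearest 6.304). This array had the highest actin 3′ over 5′ ratio among hippocampus arrays, 1.17, and its part in these values was not tested. In hippocampus CS, replicate 85 had Cry2 at 7.033 (nearest 6.658). In hippocampus FC, replicate 43 had Dbp at 5.624 (nearest 5.804) and replicate 79 had Per1 at 7.180 (nearest 7.060). In amygdala NH, replicate 17172 had Arntl at 6.508 (nearest 6.396).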

How the results depend on the processing

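No paired analysis was possible because no replicate number is shared between arms of a tissue. Numbers within amygdala titles recur as hippocampus numbers of the same arm, but the labels do not say that these mark the same mice, and no such link was fitted. The number of clock genes passing between arms stayed at 0 under every alternative run but a pair in amygdala FC minus NH. There it was 1, Per1, with no batch term (difference 0.37, limma adjusted p = 0.0109) and 1 with array weights (0.27, adjusted p = 0.0176). Over all probe sets these settings called 211 and 911, and batch as a random block 10, against 7. The counts over all probe sets with no batch term, a random block and array weights were 17, 4 and 5 in amygdala CS minus NH and 7, 4 and 3 in hippocampus FC minus NH, each against 1, and 7 with no batch term in hippocampus CS minus NH, against 1. Among NH arrays only, batches called 274 probe sets in amygdala, against 1953, and 21 in hippocampus, against 1862. Hippocampus batch 5 held no NH array, so the fit of NH arrays cannot test how it differs from other batches. Of the values of single genes, 192 changed sign with an unadjusted p of 0.05 or more on both sides, and 2 changed sign with a p below 0.05 on 1 side: hippocampus CS minus NH for Dbp was 0.23 in batch 6 alone, and amygdala FC minus CS for Clock was 0.19 in batch 3 alone. Between batches the hippocampus count of 2 was 1 with the dimmest 60% left out, 0 among NH arrays only, and 1 to 3 with 1 array left out (Arntl lost without CS replicates 105 or 85 or FC replicate 113, Cry2 added without CS replicate 109 or NH replicate 100, Per3 added without CS replicate 75 or FC replicate 43). The amygdala count of 1 was 0 with the dimmest 60% left out, 2 with quantile normalization again (Cry2 added, adjusted p = 0.0389), 0 among NH arrays only, and 0 to 2 with 1 array left out. It was 0 without NH replicate 3142153. Cry2 was added without CS replicates 251101 or 3151152, FC replicates 21927 or 3148150, or NH replicates 16768, 16970 or 28892, and Dbp without NH replicate 17172. Leaving out arrays removes samples, and the cause of the other changes was not tested. The count of 0 amygdala gene pairs was 0 to 1 with 1 array left out, since Cry2 and Npas2 passed without NH replicate 16768 (r = 0.80, adjusted p = 0.0259). The actin covariate was added after seeing the data and changed no count of clock genes or gene pairs. Over all probe sets it called 8 in amygdala FC minus NH, against 7.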
